A study of Mus musculus with 12 samples.

Results

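Malat1, Neat1, Kcnq1ot1 and Gas5 are 4 long noncoding RNAs, selected on their difference between stressed and unstressed mice in earlier results of these data. They are 4 of 3684 genes named in the deposited tables, of which 2999 are listed for CD4 cells, 2851 for CD8a cells and 2166 for both. All 4 are listed for both cell types. Spleens came from 12 mice in 4 groups of 3: C57Bl6/J mice without stress (wild-type controls), S100a9-/- mice on C57Bl6/J without stress (knockout controls), and mice of each genotype after repeated social defeat stress. The stress paradigm, in which a mouse is repeatedly defeated by an aggressor, ran for 10 days and was followed by 1 day of behavior testing, and splenocytes were harvested on day 12 for droplet single-cell RNA sequencing. The sources used here give neither the age of the mice nor how the S100a9 allele was made. Each value is the authors' average expression of a gene over the CD4 or the CD8a cells of 1 mouse, a linear scale on which the listed genes of a mouse sum to between 7367 and 8270; how many cells or reads stand behind a value is unknown, and how doublets were treated and cells assigned to CD4 or CD8a is not given in the sources used here.

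Long noncoding RNAs act as RNA rather than through a protein, and these 4 do so in different places. Malat1 gathers in nuclear speckles, the bodies where splicing factors are stored, and Neat1 is the scaffold around which the neighbouring paraspeckles form. Kcnq1ot1 is transcribed from the paternal chromosome and silences an imprinted cluster of genes in cis. Gas5 is a host of small nucleolar RNAs (snoRNAs), which guide the modification of ribosomal RNA: the snoRNAs lie in its introns, and its spliced exons are exported and decayed on ribosomes. Gas5 RNA accumulates in cells that stop growing and has been described as a decoy of the glucocorticoid receptor.

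On mm10, Malat1 lies at chr19:5795690-5802672 on the minus strand as a single exon of 6983 bases. Neat1 lies 22035 bases away at chr19:5824708-5845478 on the same strand, with a long transcript of 20771 bases in 1 exon. Kcnq1ot1 (chr7:143203458-143296549, minus strand) is 1 exon of 93092 bases inside the protein-coding gene Kcnq1, which is on the plus strand and is listed for neither cell type. Gas5 (chr1:161034422-161038539, plus strand) is spliced, and 1 of its 25 annotated transcripts, taken here because its first base is also a RefSeq start, has 10 exons and 759 bases. Its introns hold 10 annotated snoRNA entries, among which Snord80 is entered more than once at overlapping positions. The nuclear RNAs are thus single-exon and long, against a median longest transcript of 2244 bases among genes listed for CD4 cells, of which 15.4% are single-exon. Genes, transcripts and ends are from GENCODE M21.

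The libraries were primed at poly(A), so the 3 prime ends of these RNAs bear on what was read. Malat1 and long Neat1 are known to be cut by RNase P and to end in a triple helix in place of a poly(A) tail, in which a pair of U-rich motifs clasps an A-rich tract. Those elements, found by pattern in the annotated transcripts and shown in capitals, are printed first, followed by the polyadenylation signal of the short Neat1 transcript, the longest run of A within Kcnq1ot1 and the polyadenylation signal of Gas5. The windows are chr19:5795982-5796081 (minus strand), chr19:5824708-5824807 (minus), chr19:5842307-5842346 (minus), chr7:143226925-143227005 (minus) and chr1:161038495-161038534 (plus), all mm10 and read 5′ to 3′ on the transcript, with T for U.
Malat1 A-rich tract: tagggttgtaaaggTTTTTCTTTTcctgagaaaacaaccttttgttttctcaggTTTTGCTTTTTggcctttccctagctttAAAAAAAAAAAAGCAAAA
Neat1 long end: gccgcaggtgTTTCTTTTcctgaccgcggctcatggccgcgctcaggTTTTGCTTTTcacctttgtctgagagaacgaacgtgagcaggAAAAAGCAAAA
Neat1 short end: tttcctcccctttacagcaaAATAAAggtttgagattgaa
Kcnq1ot1 A run: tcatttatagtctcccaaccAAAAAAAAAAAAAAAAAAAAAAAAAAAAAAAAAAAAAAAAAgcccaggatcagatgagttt
Gas5 end: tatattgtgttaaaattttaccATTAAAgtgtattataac
The A-rich tract of Malat1 lies 292 bases before its annotated end. The annotated ends of Malat1 and Kcnq1ot1 each hold an AATAAA signal within their last 40 bases. The run in Kcnq1ot1 is 41 bases long, and its printed window ends 23467 bases before the annotated end. Kcnq1ot1 holds 10 runs of at least 10 A, Malat1 holds 1, and the long Neat1 transcript and the Gas5 transcript hold none. Of listed genes with a GENCODE transcript, 18.8% in CD4 cells and 19.3% in CD8a cells have such a run inside their longest transcript. Where reads began along these transcripts was not measured in the files.

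S100a9, the calcium-binding protein whose gene is deleted, was near 0 in T cells of all groups and gave no check of the genotype labels. In CD4 cells S100a9 ranged from 0.00449 to 0.0167 in wild-type controls and from 0.0418 to 0.0493 in knockout controls, so it was higher in the mice labelled knockout. After stress S100a9 was 0.0595 to 0.111 in wild-type and 0.0228 to 0.0294 in knockout CD4 cells. The S100a9 reads may lie outside the deleted part, which the sources do not give, and genotypes are therefore named as labelled. The labels did separate the mice in another transcript, named after its values were seen: the predicted gene Gm28438 was at most 0.0098 in all 6 wild-type mice and at least 0.855 in all 6 labelled knockout, in both cell types. T cell markers matched the labels: Cd4 averaged 1.75 to 2.77 over the groups in CD4 cells, where Cd8a averaged 0.109 to 0.197, and Cd8a averaged 3.62 to 4.83 in CD8a cells. Summed natural killer markers were higher after stress, at 2.79 to 8.02 in the 6 control and 9.19 to 40.9 in the 6 stressed mice in CD4 cells and at 13.8 to 22.4 and 25.1 to 47.2 in CD8a cells. Summed ribosomal protein genes were also higher, at 1991 to 2439 and 2767 to 3098 in CD4 cells and 2269 to 2633 and 3157 to 3619 in CD8a cells. Mitochondrially encoded RNA was lower, at 467 to 536 and 383 to 462 in CD4 cells and 447 to 518 and 359 to 403 in CD8a cells. Summed B cell markers overlapped in CD4 cells (3.44 to 11.2 and 3.42 to 7.08) and were lower after stress in CD8a cells, without overlap. Neutrophil sums were higher in stressed wild-type mice, at 0.0118 to 0.0304 in control and 0.116 to 0.323 in stressed CD4 cells. In CD8a cells they were 0.0062 to 0.0474 and 0.0981 to 0.265. Monocyte and dendritic cell sums were also higher, at 2.52 to 2.89 and 3.48 to 4.03 in CD4 cells. In knockouts both sums overlapped between control and stressed mice. Erythroid sums separated control from stressed mice only in wild-type CD4 cells (0.0891 to 0.141 and 0.197 to 2.36). Their part in the stress differences was not tested.

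Malat1, the speckle RNA, was lower after stress, by 31.3% and 28.1% of the control mean in wild-type and knockout CD4 cells and by 37.7% and 30.0% in CD8a cells. In CD4 cells Malat1 was 219, 219 and 237 in wild-type controls, 212, 214 and 218 in knockout controls, 163, 151 and 149 in stressed wild-type mice and 161, 152 and 150 in stressed knockouts. All 6 stressed mice lay below all 6 controls, and the stressed groups overlapped each other. In CD8a cells Malat1 was 188, 178 and 195 in wild-type controls, 177, 180 and 176 in knockout controls, 122, 117 and 111 in stressed wild-type mice and 128, 124 and 121 in stressed knockouts. The separation of stressed from control mice was again complete. In CD4 cells the mean went from 225 ± 10.2 (SD, n = 3) to 155 ± 7.37 in wild-type mice and from 215 ± 3.16 to 154 ± 5.36 in knockouts. In CD8a cells it went from 187 ± 8.54 to 117 ± 5.24 and from 178 ± 1.87 to 124 ± 3.22. Stress differences on the log2(value + 0.1) scale were -0.54 ± 0.07 (SE) and -0.48 ± 0.05 in wild-type and knockout CD4 cells, and -0.68 ± 0.07 and -0.51 ± 0.06 in CD8a cells. These differences chose the gene and carry no test.

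Gm37376, a transcript of unknown status on the opposite strand within Malat1, is listed separately; whether the counting used strand is not given in the sources used here, so its reads and those of Malat1 may not be separable. Gm37376 averaged 0.951 in wild-type control and 0.316 in stressed CD4 cells, a log2 difference of -1.36 ± 0.16, against -0.54 for Malat1. It was named after its values were seen, as an overlapping gene.

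Neat1 was about 1.7 to 1.9 in the group means of control mice and below 1 in those of stressed mice. In CD4 cells Neat1 was 1.73, 1.61 and 1.61 in wild-type controls, 1.80, 1.81 and 1.72 in knockout controls, 0.906, 0.844 and 0.763 in stressed wild-type mice and 0.741, 0.883 and 0.942 in stressed knockouts. In CD8a cells it was 1.65, 1.73 and 1.71, then 1.76, 2.01 and 1.88, then 0.672, 0.946 and 0.940, and then 0.825, 1.04 and 0.945, in the same order of groups. Stressed and control mice did not overlap in either cell type, and the lowest value, 0.672, was that of stressed wild-type mouse 1 in CD8a cells. In CD4 cells the mean of Neat1 went from 1.65 ± 0.0644 (SD, n = 3) to 0.838 ± 0.072 in wild-type mice and from 1.78 ± 0.0497 to 0.855 ± 0.103 in knockouts. In CD8a cells it went from 1.70 ± 0.0438 to 0.852 ± 0.156 and from 1.88 ± 0.128 to 0.935 ± 0.106. The stress difference of Neat1 was -0.90 ± 0.09 and -0.98 ± 0.10 in wild-type and knockout CD4 cells and -0.93 ± 0.11 and -0.94 ± 0.10 in CD8a cells. On the linear scale Neat1 was 49.3% lower in wild-type and 51.8% lower in knockout CD4 cells, a larger share than the 31.3% and 28.1% of its neighbour Malat1.

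Kcnq1ot1 had the largest stress difference of the 4. In CD4 cells Kcnq1ot1 was 4.67, 4.02 and 3.94 in wild-type controls, 4.52, 4.26 and 4.54 in knockout controls, 1.24, 1.45 and 1.41 in stressed wild-type mice and 1.45, 1.37 and 1.67 in stressed knockouts. CD8a cells had Kcnq1ot1 values of 5.21, 4.90 and 4.64, then 5.73, 5.41 and 5.53, then 1.52, 1.92 and 1.95, and then 1.92, 1.90 and 1.72. The highest stressed mouse was far below the lowest control in both cell types, and the stressed groups overlapped. In CD4 cells the mean of Kcnq1ot1 went from 4.21 ± 0.399 (SD, n = 3) to 1.37 ± 0.107 in wild-type mice, 67.6% lower, and knockouts were 66.3% below their control mean of 4.44 ± 0.152. The CD8a mean went from 4.92 ± 0.284 to 1.79 ± 0.241, 63.5% lower, and from 5.56 ± 0.162 to 1.85 ± 0.106, 66.8% lower. The stress difference was -1.56 ± 0.09 and -1.51 ± 0.09 in wild-type and knockout CD4 cells and -1.41 ± 0.10 and -1.54 ± 0.07 in CD8a cells. Counted from the lowest difference, Kcnq1ot1 stood at place 3 of 2413, 2 of 1898, 6 of 2108 and 3 of 2023 genes in those comparisons. Of the other genes of its imprinted region, only Tssc4, a small protein-coding neighbour, is listed, for CD4 cells. In the knockout comparison that lists it, Tssc4 was 0.216 ± 0.0423 (SD, n = 3) in controls and 0.240 ± 0.0511 in stressed mice, a difference of 0.10 ± 0.15 (SE).

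Gas5 was higher after stress. In CD4 cells Gas5 was 4.24, 3.88 and 4.06 in wild-type controls, 3.17, 3.37 and 3.35 in knockout controls, 5.90, 5.94 and 5.52 in stressed wild-type mice and 4.85, 4.68 and 4.45 in stressed knockouts. CD8a cells had Gas5 values of 5.39, 5.23 and 5.68, then 4.61, 4.89 and 4.28, then 8.72, 7.62 and 7.77, and then 6.12, 6.12 and 5.86. The 4 groups did not overlap in either cell type and stood in the same order in both. Stressed wild-type mice were highest, then stressed knockouts, wild-type controls and knockout controls. Both cell types come from the same mice, and how many of all listed genes separate in this way was not counted. In CD4 cells the mean of Gas5 went from 4.06 ± 0.179 (SD, n = 3) to 5.79 ± 0.229 in wild-type mice, 42.5% higher, and from 3.30 ± 0.113 to 4.66 ± 0.201 in knockouts, 41.3% higher. The CD8a mean of Gas5 went from 5.43 ± 0.230 to 8.04 ± 0.592, 47.9% higher, and from 4.59 ± 0.303 to 6.03 ± 0.152, 31.3% higher. The stress difference was 0.50 ± 0.07 and 0.49 ± 0.07 in wild-type and knockout CD4 cells and 0.55 ± 0.07 and 0.39 ± 0.07 in CD8a cells.

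**Figure D1:**
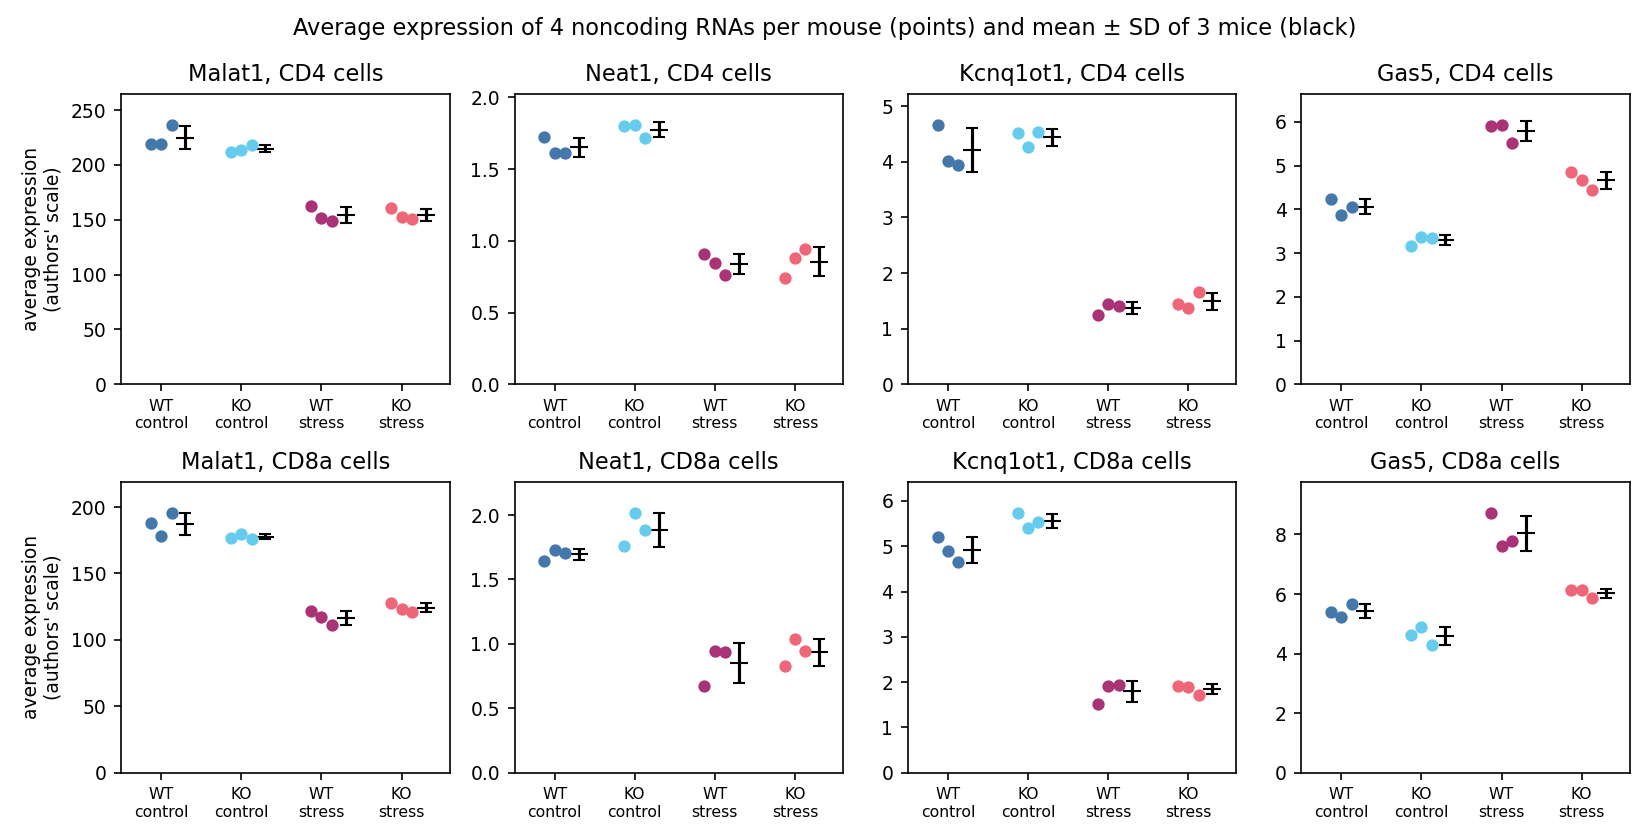
Average expression (linear, authors' scale, axes from 0) of Malat1, Neat1, Kcnq1ot1 and Gas5 in CD4 (top) and CD8a (bottom) cells; each point is 1 mouse, and the black marks are the mean ± SD of 3 mice. The 6 stressed mice lie below the 6 controls for the first 3 RNAs and above them for Gas5, where wild-type mice also lie above mice labelled knockout within each condition.

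All 4 RNAs passed the threshold (adjusted p under 0.05, limma with Benjamini-Hochberg adjustment) in all 4 stress comparisons, in which 59.9% of genes in wild-type and 39.5% in knockout CD4 cells, and 68.2% and 40% in CD8a cells, were called. The authors' tables hold genes already selected on these mice, and the RNAs were chosen on the same contrast. Nothing is therefore read from these counts or from the separation of stressed and control mice. Wild-type and knockout comparisons use different mice and thus do not share controls, but CD4 and CD8a values come from the same mice. In an average over the cells of a mouse, fewer expressing cells and less RNA per cell cannot be told apart.

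**Figure D2:**
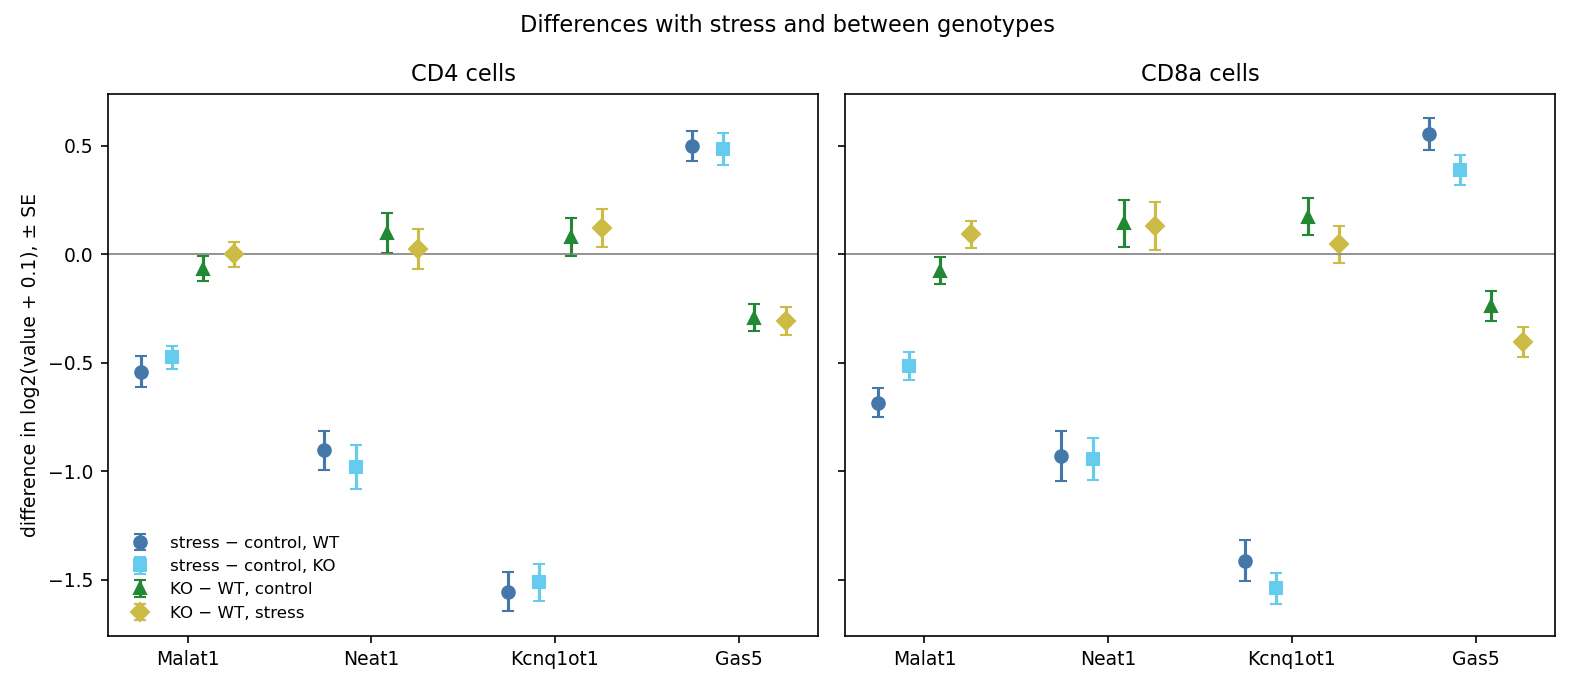
Differences in log2(value + 0.1) with their standard errors for each RNA in CD4 (left) and CD8a (right) cells: stress minus control in wild-type (circles) and knockout (squares) mice, and knockout minus wild type in control (triangles) and stressed (diamonds) mice. Kcnq1ot1 has the lowest stress differences, and only Gas5 has genotype differences whose error bars lie wholly below 0 in all 4 comparisons.

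Ratios of values within a mouse do not depend on how that mouse was scaled. Those of the nuclear RNAs to Gas5 were lower in all stressed mice. That direction was fixed when the RNAs were chosen on their stress differences, so the ratios are descriptions. Malat1 was 55.5 ± 3.45 times Gas5 in wild-type control CD4 cells and 26.7 ± 1.08 times in stressed ones, and 65.1 ± 1.77 and 33.2 ± 0.604 times in knockouts. Kcnq1ot1 relative to Gas5 was 1.04 ± 0.0663 and 0.236 ± 0.0228 in wild-type control and stressed CD4 cells, and 0.907 ± 0.0793 and 0.225 ± 0.0445 in CD8a cells. On the log2(value + 0.1) scale, the stress difference of the Kcnq1ot1/Gas5 ratio was -2.06 and -2.00 in wild-type and knockout CD4 cells and -1.97 and -1.93 in CD8a cells. Malat1 also shifted against Kcnq1ot1: in value, it was 53.8 ± 6.66 times Kcnq1ot1 in wild-type control CD4 cells and 114 ± 14.8 times after stress. Against Neat1 it shifted less, with log2(value + 0.1) differences of 0.36 and 0.50 in wild-type and knockout CD4 cells. In CD8a cells these were 0.25 and 0.43. With single mice left out, the lowest in wild-type CD8a cells was 0.07. No stressed group overlapped its control in any Gas5 ratio, and nothing is read from this because the RNAs were chosen on stress.

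**Figure D3:**
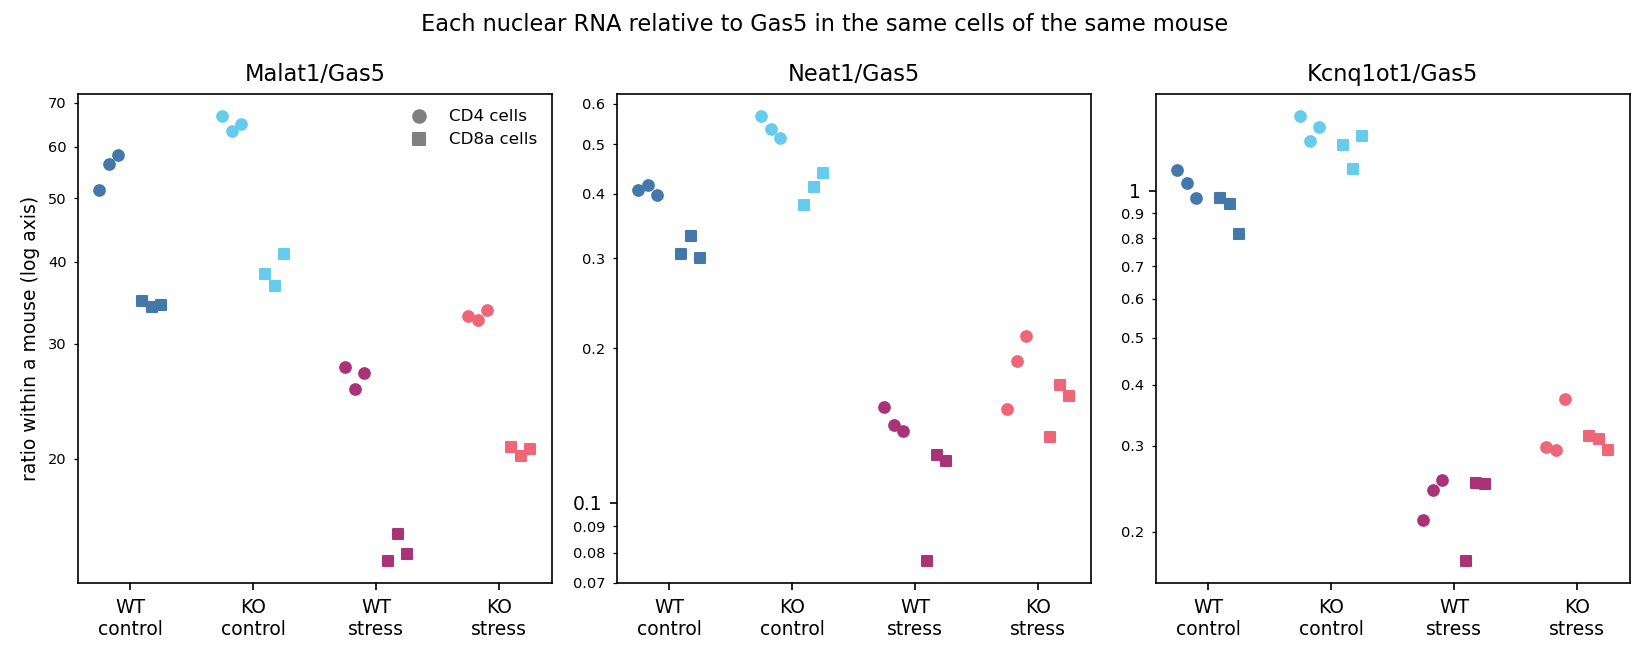
Ratio of Malat1, Neat1 and Kcnq1ot1 to Gas5 in CD4 (circles) and CD8a (squares) cells of each mouse, on log axes. The 6 stressed mice lie below the 6 controls within a cell type in each panel, as with Malat1/Gas5 at 51.6 to 58.2 in wild-type control and 25.5 to 27.6 in stressed wild-type CD4 cells. The choice of the RNAs on their stress differences fixed this direction.

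RNAs that encode proteins of the bodies Malat1 and Neat1 occupy were mostly lower with stress. Over all genes tested, 28.9% were called lower and 31% higher in wild-type CD4 cells, 20% and 19.5% in knockout CD4 cells, 41.5% and 26.7% in wild-type CD8a cells and 22.1% and 17.9% in knockout CD8a cells. Of listed genes for nuclear speckle proteins, 15 of 17 were called lower and 1 higher in wild-type CD4 cells (13 and 0 of 15 in knockouts), and 19 and 1 of 21 in wild-type CD8a cells (18 and 1 of 20), with medians of -0.70, -0.71, -0.67 and -0.57 beside medians of 0.15, 0.13, 0.09 and 0.11 over all genes of each comparison. Srrm2, a scaffold of the speckle, averaged 7.02 in wild-type control and 4.38 in stressed CD4 cells. Son, another speckle scaffold, averaged 4.85 and 3.62 in wild-type control and stressed CD8a cells. Of listed genes for paraspeckle proteins, 6 of 8 were called lower and none higher in wild-type CD4 cells (6 of 7 in knockouts), and 8 of 9 lower and 1 higher in wild-type CD8a cells (6 of 7 lower in knockouts). Sfpq, an RNA-binding protein of the paraspeckle, averaged 2.62 and 1.79 in wild-type control and stressed CD8a cells.

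The few other long noncoding RNAs of a chosen list were also lower in wild-type mice. That list leaves out noncoding snoRNA hosts other than Gas5, so it does not cover every long noncoding RNA in the data. In wild-type CD4 cells 6 of 7 listed were called lower and 1, Gas5 itself, higher; the list holds all 4 RNAs described here, and the other 3 are Tug1 (-0.86 ± 0.13), Lncpint (-0.79 ± 0.13) and Airn (-0.81 ± 0.13), named after their values were seen to account for the list. In wild-type CD8a cells 5 of 6 were lower, with Norad at -0.75 ± 0.12 and Lncpint at -0.77 ± 0.12 beside the 3 nuclear RNAs. In both knockout comparisons the 4 RNAs described here were the only ones of the list, so no other was seen there. Among snoRNA hosts, 8 of 17 were called higher and 1 lower in wild-type CD4 cells, 6 and 2 of 15 in knockouts, 9 and 3 of 17 in wild-type CD8a cells and 8 and 2 of 16 in knockouts. In wild-type mice the share called in either direction was thus below (CD4) or near (CD8a) that of all genes, and in knockouts above it. Centring on the median gene gave 14 higher and 2 lower of 17 in wild-type CD8a cells. The most abundant hosts are protein-coding: Tpt1, a translation-linked protein, averaged 113 in wild-type control and 136 in stressed CD4 cells, and Rpsa, a ribosomal protein, 32.3 and 47.5. Snhg14, a long imprinted host named after its values were seen, went the other way (-0.75 ± 0.13 in wild-type CD4 cells). Cytosolic ribosomal protein genes were called higher for 69 of 77 in wild-type and 73 of 76 in knockout CD4 cells, and for 71 of 77 and 73 of 76 in CD8a cells. In CD4 cells 3 were called lower in wild-type mice and none in knockouts. Genes for nonsense-mediated decay factors, which act on spliced Gas5, had 2 called higher and 1 lower of 6 in wild-type and 0 and 1 of 4 in knockout CD4 cells, and 1 and 1 of 5 and 0 and 1 of 4 in CD8a cells. These shares lay below those of all genes, and median centring gave 4 higher of 5 in wild-type CD8a cells. The lower one was in each comparison Smg1, a kinase of the pathway, at -0.90 ± 0.10 in wild-type CD4 cells. Of translation factors with TOP messages, 7 of 11 were called higher and 1 lower in wild-type CD4 cells (knockouts 9 and 2 of 12). In wild-type CD8a cells 10 of 12 were called higher. Mitochondrially encoded genes were called lower for 8 of 11 and 10 of 11 in wild-type CD4 and CD8a cells. From a list of the glucocorticoid receptor and its targets, 1 of 2 genes was called higher in wild-type CD4 cells. None of 4, 1 and 3 was called higher in knockout CD4, wild-type CD8a and knockout CD8a cells. In CD4 cells of either genotype none was called lower.

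**Figure D4:**
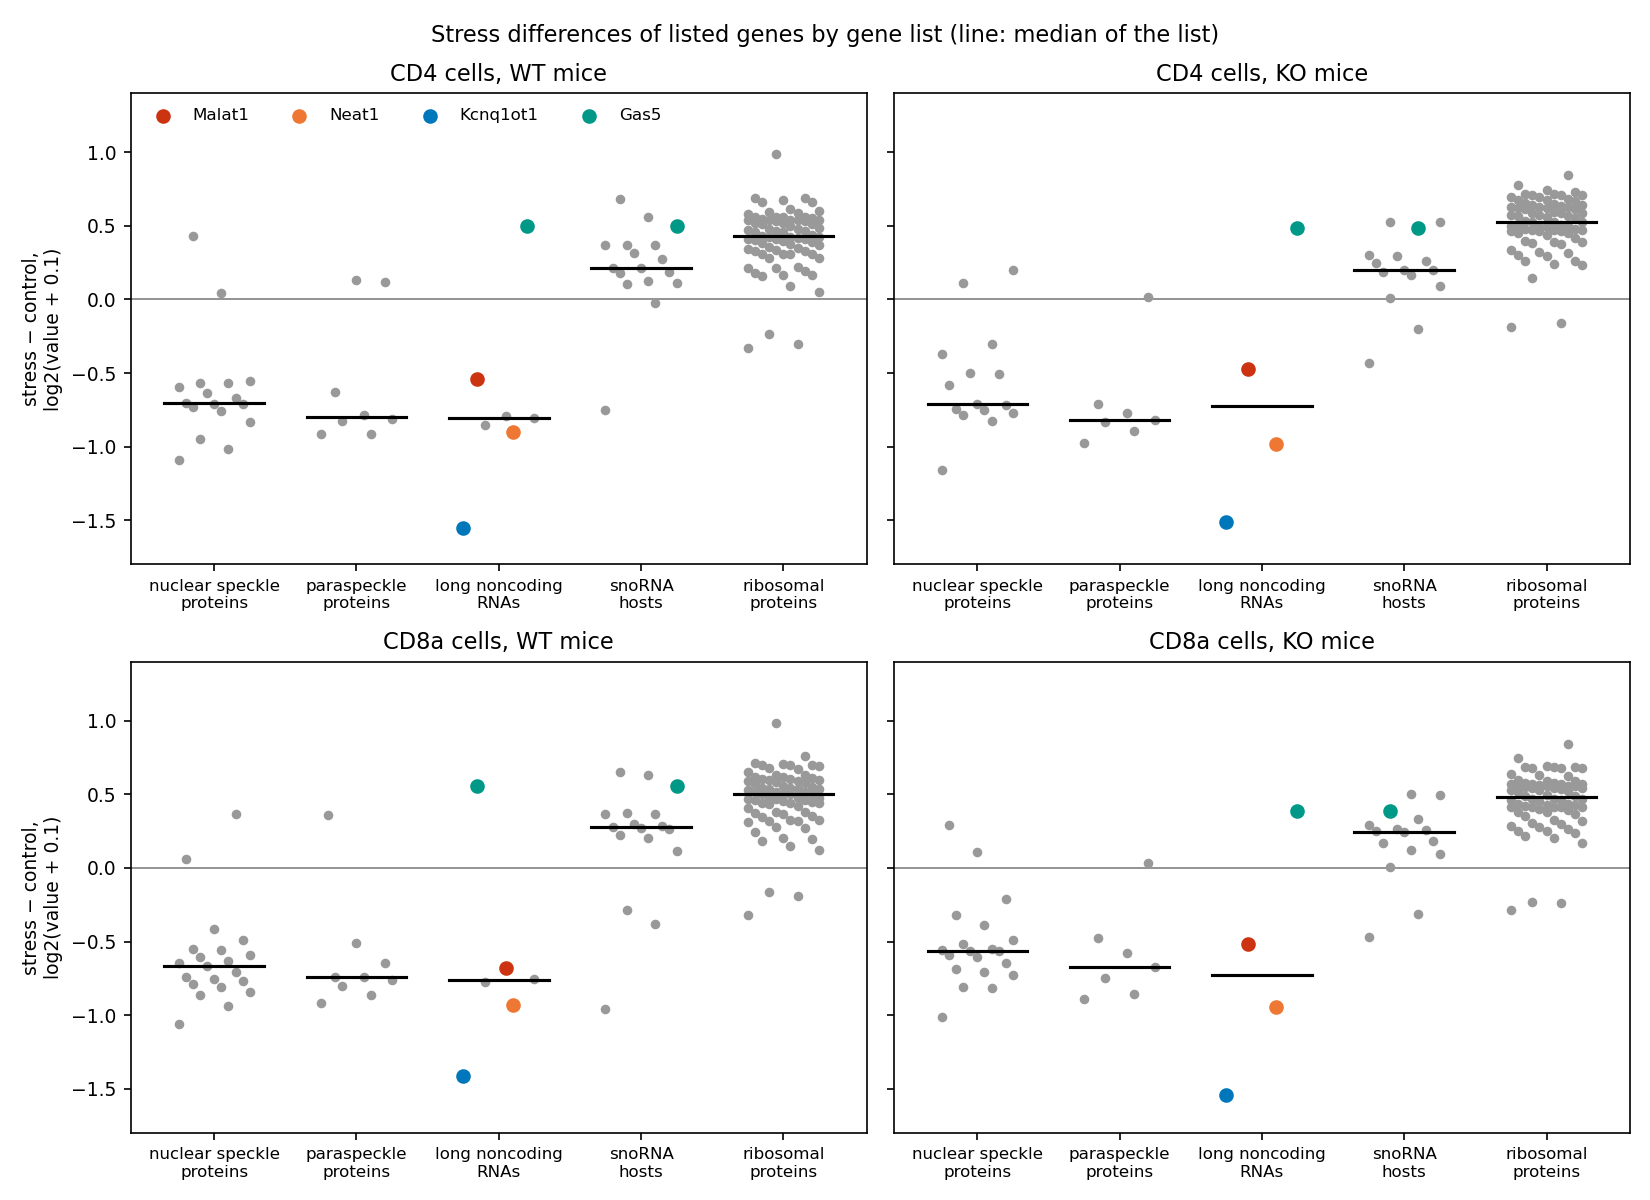
Stress minus control difference in log2(value + 0.1) of every listed gene of 5 gene lists, in CD4 and CD8a cells of each genotype; each point is a gene, coloured for the 4 RNAs, Gas5 stands in both lists that hold it, and lines are list medians. Genes for speckle and paraspeckle proteins lie mostly below 0 (medians -0.70 and -0.80 in wild-type CD4 cells) and snoRNA hosts and ribosomal proteins mostly above (0.22 and 0.43). The median over all genes tested there is 0.15, near that of the snoRNA hosts.

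Messages of ribosomal proteins, translation factors and snoRNA hosts often begin with a 5′ terminal oligopyrimidine (TOP), a C followed by pyrimidines that couples translation to growth signals, and Gas5 is known to carry one. RefSeq starts on GRCm38.p6 are available for Malat1, Kcnq1ot1 and Gas5, and the first 50 bases from each start are printed with the motif, where present, in capitals. The windows are chr1:161035166-161035215 (plus) and chr1:161034601-161034650 (plus) for Gas5, chr19:5802623-5802672 (minus) for Malat1, chr7:143296498-143296547 (minus) for Kcnq1ot1, chr3:123508287-123508336 (minus) for Snhg8 and chr11:48800360-48800409 (plus) for Rack1.
Gas5 start 2: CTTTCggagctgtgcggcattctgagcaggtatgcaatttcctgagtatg
Gas5 start 1: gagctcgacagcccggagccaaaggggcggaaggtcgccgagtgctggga
Malat1: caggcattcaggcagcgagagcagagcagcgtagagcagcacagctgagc
Kcnq1ot1: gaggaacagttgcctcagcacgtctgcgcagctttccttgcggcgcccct
Snhg8: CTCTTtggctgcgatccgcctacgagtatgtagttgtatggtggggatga
Rack1: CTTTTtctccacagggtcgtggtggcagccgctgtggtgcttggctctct
The motif searched, defined after the Gas5 start was seen, is C at the annotated first base followed by 4 bases that are each C or T, on the strand of the transcript. It stood at 823 of 32851 RefSeq starts (2.51%), at 94 of 2652 listed genes with a start (3.54%), at 15 of 57 ribosomal protein genes (26.3%) and at 3 of 18 snoRNA hosts, which are Gas5, whose start defined the motif, Snhg8 and Rack1. Annotated starts can be off by a few bases. Anywhere from 5 bases before to 10 bases after the start, the motif stood at 27.8% of snoRNA hosts, near the 24.3% of all listed genes, and at 50.9% of ribosomal protein genes. Rack1, a ribosomal scaffold protein, differed by 0.21 ± 0.07 with stress in wild-type CD4 cells, and Snhg8 by 0.11 ± 0.14.

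Genotype was not what chose the 4 RNAs, although earlier results for all contrasts were known. Gas5 was lower in mice labelled S100a9 knockout than in wild type in both cell types and both conditions. Among controls in CD4 cells the difference was -0.29 ± 0.06 (95% interval -0.43 to -0.16; limma, two-sided, Benjamini-Hochberg adjusted p = 0.0283), with 3 of 3 knockouts below all 3 wild-type mice; 3.23% of 2999 genes were called there. Among stressed mice in CD4 cells it was -0.31 ± 0.06 (adjusted p = 0.0838 by limma), which missed the threshold, where 0.1% of genes were called. In CD8a cells Gas5 differed by -0.24 ± 0.07 among controls (adjusted p = 0.124 by limma; 0.702% of 2851 genes called) and by -0.41 ± 0.07 among stressed mice (adjusted p = 0.0082; 0.631% called). The CD4 control call was lost without wild-type control mouse 1, 2 or 3 or knockout control mouse 1 or 2 (differences of -0.32 to -0.26, adjusted p up to 0.129 by limma), and the call among stressed CD8a cells without wild-type mouse 1 or knockout mouse 3 (adjusted p up to 0.0758 by limma). Gas5 thus passed in 2 of 4 comparisons and kept its sign in all, and the group means were 18.8% and 19.5% lower in CD4 cells and 15.5% and 24.9% lower in CD8a cells.

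The average of the control and stressed genotype differences was added after these values were seen. It was -0.30 ± 0.04 in CD4 cells (95% interval -0.39 to -0.20; adjusted p = 0.0024 by limma, 2.93% of genes called) and -0.32 ± 0.05 in CD8a cells (-0.43 to -0.22; adjusted p = 0.00104, 2.81% called). Of the authors' own selections, both tables of stressed knockout against stressed wild-type cells, with 87 and 99 genes, list Gas5, and neither lists the other 3 RNAs. Neither table of unstressed knockout against wild-type cells, with 496 genes for CD4 and 303 for CD8a cells, lists Gas5.

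Malat1, Neat1 and Kcnq1ot1 did not pass in any of the 4 genotype comparisons each (adjusted p by limma from 0.444 to 1.0). Among controls, the genotypes did not overlap for Malat1 in CD4 cells (knockouts lower) or for Neat1 and Kcnq1ot1 in CD8a cells (knockouts higher). Among stressed mice they overlapped in every comparison for these 3 RNAs. How many of all listed genes separate in this way was not counted, so nothing is read from it. Their averaged differences had 95% intervals of -0.12 to 0.05 in CD4 and -0.08 to 0.10 in CD8a cells for Malat1, -0.08 to 0.20 and -0.03 to 0.30 for Neat1 and -0.03 to 0.23 and -0.02 to 0.24 for Kcnq1ot1. The authors' table of unstressed knockout against wild-type CD8a cells lists Malat1 and Kcnq1ot1 among 303 genes.

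Ribosomal protein RNA moved with Gas5 between genotypes. The summed ribosomal protein genes were 1991 to 2067 in knockout and 2241 to 2439 in wild-type controls and 2767 to 2918 and 2947 to 3098 in stressed mice in CD4 cells, and the 4 groups stood in the order of Gas5 in CD8a cells as well. Of 78 listed ribosomal protein genes, 17 were called lower and none higher in CD4 knockout controls, 5 in CD8a knockout controls and none in either stressed comparison. Over all listed genes, 1% were called lower in CD4 and 0.421% in CD8a knockout controls. Relative to that sum, a ratio added after the data were seen, Gas5 was 1.59 to 1.66 per 1000 units in the 6 mice labelled knockout and 1.67 to 1.94 in the 6 wild-type mice in CD4 cells, and 1.85 to 2.00 and 2.11 to 2.41 in CD8a cells. Of the other snoRNA hosts, Zfas1, a noncoding host named after its values were seen, also passed among stressed CD8a cells (-0.54, adjusted p = 0.035 by limma), so that 2 of 18 listed hosts passed there, both lower. Over all listed genes, 0.316% were called lower in that comparison. The 4 listed erythroid markers, all haemoglobin genes, had a higher mean sum in knockouts in both cell types and conditions. In CD4 cells their sum was 0.0891 to 0.141 in wild-type and 0.627 to 5.52 in knockout controls, and 0.197 to 2.36 and 1.70 to 5.08 after stress. The sum in CD8a cells was 0.0342 to 0.850 and 0.351 to 2.77 in controls and 0.228 to 0.688 and 1.39 to 15.9 after stress. Summed neutrophil markers, which include S100a9, were 0.0118 to 0.0304 in wild-type and 0.0796 to 0.280 in knockout CD4 controls. In CD8a controls they were 0.0062 to 0.0474 and 0.0768 to 0.248. Summed monocyte and dendritic cell markers were also higher in knockout controls. They were 2.52 to 2.89 and 3.28 to 5.30 in CD4 cells. CD8a cells had 2.34 to 2.73 and 2.77 to 3.94. After stress the genotypes overlapped in both sums. Summed B cell and natural killer markers overlapped between genotypes among controls. Erythrocytes were lysed during preparation, per the labels' protocols, and the part of all these marker RNAs in the Gas5 difference was not tested.

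No difference between the genotypes in the stress difference passed the test for the 4 RNAs. The interaction was -0.01 ± 0.09 (95% interval -0.20 to 0.18) for Gas5 in CD4 cells and -0.17 ± 0.10 (-0.37 to 0.04) in CD8a cells. For Malat1 it was 0.07 ± 0.08 and 0.17 ± 0.09 (-0.02 to 0.35), and for Kcnq1ot1 0.04 ± 0.12 and -0.13 ± 0.12. Adjusted p-values by limma ran from 0.686 to 0.988. In the whole fit 0% of genes were called in either cell type by limma, with 284 of 2999 in CD4 and 204 of 2851 in CD8a cells at an unadjusted p under 0.05.

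CD8a and CD4 cells of the same mouse differed in 3 of the 4 RNAs. Gas5 was higher in CD8a cells in 12 of 12 mice, at 1.26 to 1.48 times its CD4 value (0.43 ± 0.03 in log2, adjusted p = 3.26e-07 by limma). Kcnq1ot1 was also higher in 12 of 12 mice, at 1.03 to 1.38 times (0.30 ± 0.04, adjusted p = 2.76e-05). Malat1 was lower in CD8a cells in 12 of 12 mice, at 0.745 to 0.858 times (-0.31 ± 0.02, adjusted p = 7.36e-07 by limma). Malat1 and Kcnq1ot1, both lower after stress, thus differed in opposite directions between the cell types. Neat1 did not pass (0.06 ± 0.05, interval -0.05 to 0.17, adjusted p = 0.332; higher in 9 of 12 mice). Without stressed wild-type mouse 1, Neat1 was 0.11 with an adjusted p of 0.0185 by limma. Of 2166 genes, 52.8% were called in this comparison, 17.3% higher and 35.5% lower in CD8a cells. Among lists, 14 of 17 snoRNA hosts and 68 of 78 ribosomal protein genes were higher in CD8a cells. No change of the cell-type difference with stress passed for the 4 RNAs (adjusted p from 0.803 to 0.992 by limma), and 0% of all genes were called by limma, with 143 at an unadjusted p under 0.05.

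**Figure D5:**
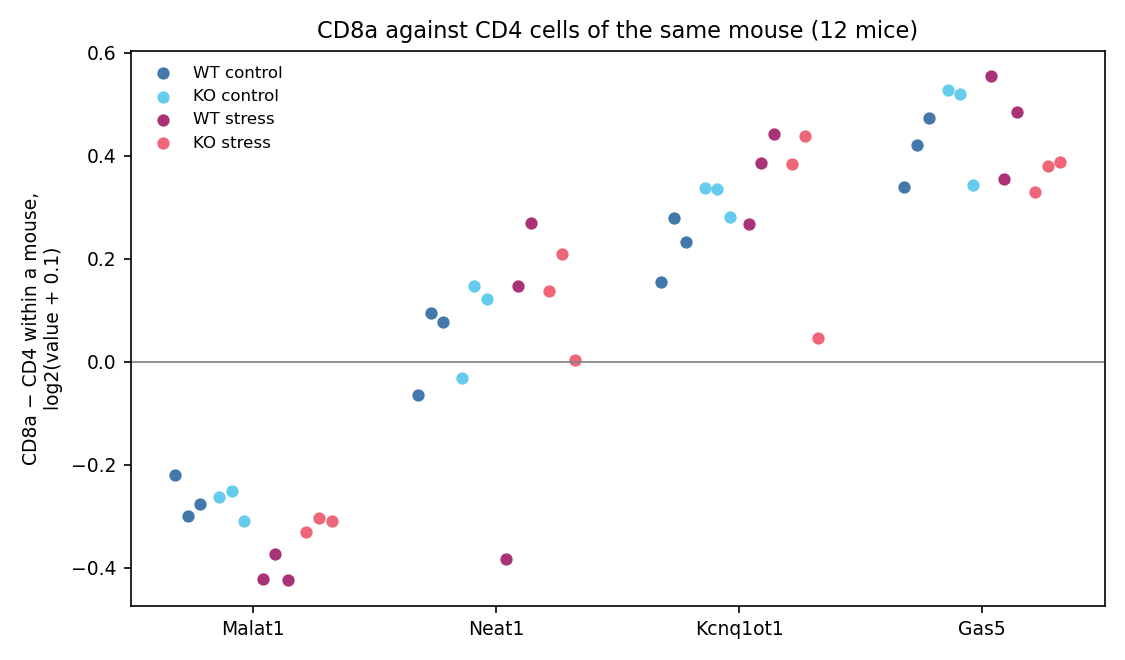
CD8a minus CD4 difference in log2(value + 0.1) for each RNA, 1 point per mouse, coloured by group. Malat1 lies below 0 (-0.42 to -0.22) and Kcnq1ot1 and Gas5 above 0 in all 12 mice, and 1 stressed wild-type mouse stands at -0.38 for Neat1.

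Over the 12 mice the genes whose levels were most like each RNA followed the stress difference they share, and these correlations are descriptions over mice of 4 groups. By the mean of Pearson's r in CD4 and CD8a cells, among 1918 genes, Malat1 was most like Prpf38b (0.979), Arglu1 (0.977), Kif21b (0.977), Rbm25 (0.976) and Ktn1 (0.975). Neat1 was most like Malt1 (0.986), Chd4 (0.983), Ptprc (0.980), Msi2 (0.980) and Prkcq (0.978). Kcnq1ot1 was most like Atrx (0.993), Zfp292 (0.992), Srrm2 (0.990), Gvin-ps7 (0.990) and Ankrd11 (0.990), and Gas5 was most like the ribosomal protein genes Rpl22 (0.952), Rpl36a (0.946), Rpl34 (0.946) and Rps20 (0.939).

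Within groups, with the stress and genotype means removed, other genes came first for Malat1 and Kcnq1ot1. The deviations of Malat1 from its group means were most like those of Rps25 (0.894), Rpl22l1 (0.894), Rpl6 (0.812), Rpl6l (0.805) and Nop10 (0.801), 4 ribosomal protein or like genes and a snoRNP protein. Those of Gas5 were again most like ribosomal protein genes, Rps7 (0.769), Rpl5 (0.765), Rpl21 (0.748), Rpl26 (0.746) and Rps13 (0.692). Those of Neat1 were most like Malt1 (0.824), Zfp207 (0.743), Picalm (0.743), Chd4 (0.742) and Syne1 (0.710), and those of Kcnq1ot1 like Herc1 (0.881), Ankrd17 (0.861), Pigyl (0.847), Eif4g3 (0.842) and Arid1a (0.825). Between the RNAs, the deviations of Malat1 and Kcnq1ot1 had r of -0.61 in CD4 and -0.47 in CD8a cells, while those of Malat1 and Gas5 had 0.46 and 0.71, each over 12 mice with 3 a group. The sign of Malat1 with each of the others was thus the reverse of the sign of their levels over all mice (0.957 with Kcnq1ot1 and -0.786 with Gas5).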

How the data were processed

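Spleen cells of 12 mice were sequenced with the 10x 3′ v2 protocol, per the labels' protocols, with Cell Ranger 2.1.1 and mm10, per the submitters' processing notes. The authors deposited 8 tables of average expression per mouse for CD4 or CD8a cells, a linear signal whose exact normalization, cell numbers and depth are not given in the sources used here; each table holds genes selected for 1 comparison, so p-values are adjusted over selected genes. A mouse had the same value in all tables of a cell type, and these were joined. No data column lacked a sample. After adding a pseudocount of 0.1, log2 values went into linear models in R 4.3.3 (limma 3.58.1, trend, two-sided, Benjamini-Hochberg over all listed genes, threshold 0.05): stress with 3 mice against 3 over the genes of the table, genotype and interaction with all 12 mice, and CD8a minus CD4 within mice. The fit was tested on simulated data.

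The 4 RNAs and all gene lists were chosen with earlier results of these data known. Besides the 4 RNAs, the 5 genes most like each in levels and in deviations from group means were named, among genes listed in both cell types with a mean of at least 0.1 and no predicted symbol, and up to 4 of the highest listed genes of each list; others are marked where named. Some genes that this rule names are not reported here. Alternatives were other pseudocounts, scalings, a filter, no trend, sample weights, the mouse number as a block, other samples in the fit and each mouse left out. Sequences are from RefSeq (GRCm38.p6) and GENCODE M21, which matched 97.5% of CD4 and 97.6% of CD8a genes.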

Additional observations from a re-analysis of the deposited data

How the results depend on the processing

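All 4 RNAs kept the sign of their stress difference, and the speckle, paraspeckle, snoRNA host and ribosomal protein lists the sign of their median stress difference, under both other scalings; for the 4 RNAs this held in every alternative tried. A pseudocount of 1 reduced the differences of Neat1 to -0.53 and -0.58 in wild-type and knockout CD4 cells and to -0.54 and -0.58 in CD8a cells, those of Kcnq1ot1 to -1.14, -1.13, -1.09 and -1.20, and that of Gas5 to 0.40 in knockout CD4 cells, as a larger pseudocount must for low values. Centring on the median gene, which moved the median stress difference in wild-type CD8a cells from 0.09 to 0.29, gave -0.49 for Malat1 and 0.75 for Gas5 there. Without a pseudocount the Neat1/Gas5 ratio differed by -1.49 in wild-type CD4 cells. The genotype difference of Gas5 was negative in every alternative. Among CD4 controls it lost its call without a mean-variance trend (-0.29, adjusted p = 0.0771 by limma), with only the 6 mice compared (-0.29, 0.0801) and without any 1 of 5 control mice (wild-type 1, 2 or 3 and knockout 1 or 2; -0.32 to -0.26 with mice left out). Among stressed CD8a cells it lost its call without the trend (-0.41, 0.0544), without wild-type mouse 1 (-0.35, 0.0526) and without knockout mouse 3 (-0.39, 0.0758), and ranged from -0.44 to -0.35 with mice left out. The averaged difference passed in 20 of 20 alternatives in each cell type (adjusted p by limma 0.00116 to 0.0194 and 0.000432 to 0.0165). The CD8a minus CD4 difference of Neat1 ranged from 0.029 to 0.11 with mice left out.

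Counts of genes called moved more. Leaving out single mice gave 9 to 189 among CD4 controls, 3 to 5 among stressed CD4, 26 to 158 averaged over CD4, 0 to 17 for the CD4 interaction, 10 to 38 among CD8a controls, 4 to 17 among stressed CD8a, 38 to 85 averaged over CD8a, 0 to 1 for the CD8a interaction and 0 to 1 for the change of the cell-type difference with stress. Removing the lowest 25% of genes gave 52, 7, 7 and 48 for CD4 controls, CD8a controls, stressed CD8a and the CD8a average. Omitting the trend gave 41 for CD4 controls, 5 for stressed CD4, 44 for the CD4 average, 1 for the CD4 interaction, 11 for stressed CD8a and 34 for the CD8a average. Sample weights gave 276 and 61 among CD4 and CD8a controls, fitting only the 6 mice gave 19 among CD4 controls and 6 among stressed CD8a, and pseudocounts gave 1 for the CD4 interaction (0.01) and 9 for stressed CD8a (1). All 12 mice in 1 fit gave 1253 and 1357 stress calls in knockout CD4 and CD8a cells. The numbers do not pair the mice: deviations of same-numbered mice correlated by over 0.1 in 1 of 18 pairs in CD4 and 4 of 18 in CD8a cells. With the mouse number as a replicate block, 1 gene passed the CD8a interaction and 662 the cell-type difference, and no call on the 4 RNAs changed. Scaling moved the split of higher and lower calls: centring gave 1142 and 854 in place of 563 and 875 for stress in wild-type CD8a cells, 30 and 45 in place of 67 and 30 among CD4 controls, 26 and 63 in place of 52 and 36 for the CD4 average, 19 and 46 in place of 47 and 33 for the CD8a average, 3 and 11 in place of 9 and 9 among stressed CD8a cells and 6 and 14 in place of 8 and 12 among CD8a controls. Rescaling without ribosomal and mitochondrial genes gave 48 and 33, 31 and 43, 28 and 33, and 6 and 10 for CD4 controls, both averages and stressed CD8a cells. Depth is unknown, so counting error could not be set beside the spread between mice.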
